A study of Mus musculus with 2 samples.

Results

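The genes of glycolysis, lactate and glucose transport form a set of 32 symbols among 55536 annotated genes. They were chosen by name, with earlier results of these data known. They comprise glucose and lactate carriers, the enzymes from hexokinase to pyruvate kinase, the bifunctional PFKFB regulators and lactate dehydrogenases. Glycogen enzymes and subunits of the mitochondrial pyruvate carrier and of pyruvate dehydrogenase are also included. Each symbol was found, and 33 gene identifiers carried them because Aldoa has a second one. Total RNA of the hippocampus, labelled as a layer of that region, was sequenced from male B6CASTF1/J mice of 2 months, the first-generation cross of C57BL/6J and CAST/EiJ. The 2 libraries, numbered replicates 1 and 2, were each made from 300 ng of RNA with ERCC spike-ins. They form 1 group without a treatment or a second genotype, so no groups could be tested and each value below is a description. Both libraries carry one strain-level donor label. No label says that they came from separate animals, so the spread between them may be technical.

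Glycolysis splits glucose into pyruvate in the cytosol, and yields ATP and NADH. Pyruvate then enters mitochondria through the pyruvate carrier for oxidation by pyruvate dehydrogenase, or is reduced to lactate by lactate dehydrogenase. In brain, astrocytes and neurons are known to use different isoenzymes and carriers for several of these steps: Slc2a3, Eno2, Slc16a7 and the M1 form of Pkm are generally ascribed to neurons, and Aldoc, the astrocytic Slc2a1 and Slc16a1, and the M2 form of Pkm to astrocytes or other non-neuronal cells. These assignments are background, and the libraries were made from whole tissue, in which the cell of origin of a transcript was not measured.

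Pyruvate kinase shows how closely 2 products of one gene can resemble each other. Pkm, on the forward strand of chromosome 9 in mm10, carries a pair of mutually exclusive coding exons, and a transcript holds the M1 exon or the M2 exon. Both are shown because the M1 to M2 share rests on them; each is 167 bases, 5′ to 3′, with the positions at which they differ in capitals. The M1 exon lies at chr9:59675029-59675195 and is carried by the annotated transcript Pkm-202. The M2 exon lies at chr9:59675568-59675734 and is carried by Pkm-201. They differ at 64 positions and are identical at 103, or 61.7% of their length.
M1 exon: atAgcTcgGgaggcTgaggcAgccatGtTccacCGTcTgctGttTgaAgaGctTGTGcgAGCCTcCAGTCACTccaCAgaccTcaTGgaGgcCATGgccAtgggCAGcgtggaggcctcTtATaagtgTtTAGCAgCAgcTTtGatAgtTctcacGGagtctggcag
M2 exon: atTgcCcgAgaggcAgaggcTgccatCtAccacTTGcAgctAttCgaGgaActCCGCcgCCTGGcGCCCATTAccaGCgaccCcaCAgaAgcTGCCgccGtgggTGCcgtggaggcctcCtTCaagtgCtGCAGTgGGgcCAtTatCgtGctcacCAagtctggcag

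The libraries held total expected counts, the estimated reads assigned to genes, of 31422827 and 31303010. Levels are in TPM, transcript abundance scaled for length to a fixed total over every entry of a quantification, as mean ± SD of the 2 libraries (n = 2) where a single value is given. Detection meant 1 TPM or more in each of the libraries. The defining markers of neurons (7 of 7), astrocytes (8 of 8), oligodendrocytes (6 of 6), microglia (5 of 5) and endothelium (6 of 6) were detected, with medians of 409.9, 77.7, 84.6, 16.8 and 14.1 TPM. Red blood cell markers were also detected, 5 of 5, and summed to 377 TPM in replicate 1 and 420.3 in replicate 2. Of choroid plexus markers 2 of 5 were detected, with sums of 15.2 and 28.1 TPM, and of skeletal muscle markers 1 of 6. The part of red blood cells and choroid plexus in the levels below was not tested.

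Of the 32 genes, 31 were detected, beside 26.2% of all annotated genes and 57.7% of protein-coding genes. The exception was Slc16a3, the lactate carrier MCT4, at 0.65 and 0.94 TPM from 26 and 41 expected counts. The median level was 88.6 TPM against 14.7 TPM for the 12710 detected protein-coding genes. Of these genes, 14 reached 100 TPM, a level that 6.41% of detected protein-coding genes reached, 12 lay between 10 and 100 TPM, and 6 lay under 10 TPM. Together they summed to 6019.9 TPM in replicate 1 and 6027 in replicate 2, which was 1.43% and 1.46% of the TPM of nuclear protein-coding genes. The plot of levels by role shows most enzymes of the glycolytic trunk at the top and carriers, PFKFB regulators and glycogen synthase lower, with the trunk enzyme Hk2 as an exception at rank 31 of 32.

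**Figure D1:**
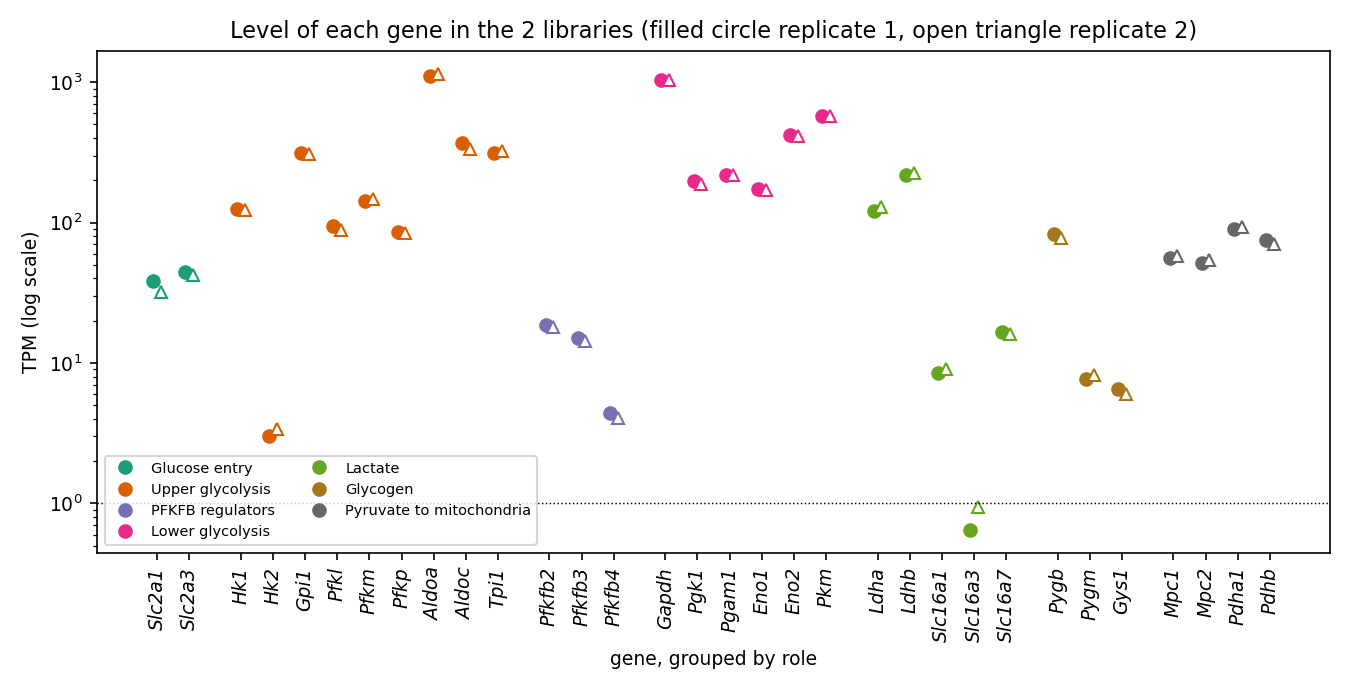
Level of each of the 32 genes in TPM on a log axis, grouped by role; filled circles are replicate 1 and open triangles replicate 2, and the dotted line marks the detection threshold of 1 TPM. Aldoa and Gapdh were highest, above 1000 TPM, and only Slc16a3 lay under the line in both libraries.

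Ordered by mean TPM in the gene quantification, the 5 highest genes were Aldoa, Gapdh, Pkm, Eno2 and Aldoc. The 5 lowest were Pygm, Gys1, Pfkfb4, Hk2 and Slc16a3. This order depends on the method, since in the second quantification described below Gapdh was above Aldoa. With genes of shared sequence added, Eno1 came to 395.8 TPM, above Aldoc at 350.4 TPM. Of 31 pairs of neighbours in this order, 3 had library values that overlapped, namely Tpi1 with Gpi1, Ldha with Hk1, and Pfkl with Pdha1. The other 28 pairs did not overlap between 2 libraries, which is a weak criterion since some gaps were small: Ldhb at 220.0 and 225 TPM came directly above Pgam1 at 219.8 and 219.1 TPM.

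The facilitative glucose carriers were at moderate levels. Slc2a3, the high-affinity carrier GLUT3, was at 44.4 and 42.4 TPM. Slc2a1, the carrier GLUT1 of the blood-brain barrier and of astrocytes, was at 38.5 and 32.1 TPM, below Slc2a3 in both libraries. In bulk tissue, fewer cells of a type and less RNA per cell cannot be told apart. Slc2a3 made up 55.3% ± 2.40 of the pair. In the second quantification, made directly from the reads, that share was 49.5% in replicate 1 and 52.4% in replicate 2, so the order of these carriers turned in 1 library and is not settled by these files. In addition, 31.7% ± 2.29 of the Slc2a1 TPM sat on Slc2a1-204, a transcript annotated for nonsense-mediated decay, and the second quantification gave it 31.8%. Slc2a1-201, which carries the full coding sequence, held 65.6% ± 1.56 in the first quantification. Models with incomplete coding sequence held 2.7% of Slc2a1 there and 29.3% in the second, so the Slc2a1-201 share depended on the method.

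Hexokinases phosphorylate glucose on entry, and nearly all of their TPM came from Hk1, the mitochondria-bound isoenzyme typical of brain. Hk1 was at 125 and 123 TPM and Hk2, the insulin-responsive isoenzyme typical of muscle, at 3.0 and 3.37 TPM. The Hk1 share was 97.5% ± 0.23, and 97.7% in the second quantification. Within Hk1, 3 transcripts with different coding sequences shared the signal: Hk1-202, Hk1-201 and Hk1-205 held 61.4% ± 5.53, 27.4% ± 5.34 and 10.3% ± 0.36. The second quantification instead gave 28.2%, 34.5% and 36.3%, so the leading Hk1 form depended on the quantification. Gpi1, which converts glucose 6-phosphate to fructose 6-phosphate, was at 315 and 307 TPM. Gpi1-201, with the full coding sequence, held 45.9% ± 1.24 of its TPM.

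Phosphofructokinase, the committed step, was spread over 3 subunits. The muscle-type Pfkm was at 142 and 147 TPM, the liver-type Pfkl at 94.8 and 88.9 TPM, and the platelet-type Pfkp at 86.2 and 84.9 TPM. Their shares were 44.9% ± 1.38, 28.5% ± 1.19 and 26.6% ± 0.19, with Pfkm highest and Pfkp lowest in both libraries and in both quantifications. The PFKFB enzymes make and degrade fructose 2,6-bisphosphate, an activator of phosphofructokinase. Pfkfb2 was at 18.6 and 18.1 TPM, Pfkfb3 at 15.0 and 14.4 TPM, and Pfkfb4 at 4.44 and 4.07 TPM. Each PFKFB gene was below each phosphofructokinase subunit, and Pfkfb2 made up 49.2% ± 0.41 of the 3. By expected counts, which are not scaled for length, Pfkfb3 had the larger share, 45.9% against 44.2% for Pfkfb2.

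Aldolase cleaves fructose 1,6-bisphosphate. Aldoa, the widely expressed form, was the highest of all 32 genes in the gene quantification, at 1102 and 1152 TPM. In the second quantification Gapdh was above it, at 3637 and 3742 TPM against 1898 and 2006 TPM for Aldoa. Aldoc, a known astrocyte marker in forebrain, was at 367 and 334 TPM in the gene quantification. Aldoa exceeded Aldoc by 3.23 ± 0.31 times and held 76.3% ± 1.76 of the pair, or 74.3% in the second quantification. The additional identifier named Aldoa, beside it on chromosome 7, had 2.15 and 1.95 TPM and was left out of these values. Tpi1, triosephosphate isomerase, was at 313 and 322 TPM.

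In the lower trunk, Gapdh was at 1031 and 1033 TPM, Pgk1, phosphoglycerate kinase, at 197 and 189 TPM, and Pgam1, phosphoglycerate mutase, at 219.8 and 219.1 TPM. Enolase followed with Eno2, the neuron-specific form, at 417 and 414 TPM and Eno1, the widely expressed form, at 172 and 171 TPM. Eno2 thus held 70.7% ± 0.05 of the pair and exceeded Eno1 by 2.42 ± 0.01 times. This share depends on what is counted as Eno1. The annotation holds Eno1b, a separate protein-coding gene whose transcript shares 87.9% of its 31-base words with Eno1, at 149 and 155 TPM, and the processed pseudogene Gm4735, which shares 89.5%, at 71.5 and 72.8 TPM. With both added to Eno1 the Eno2 share was 51.2% ± 0.44, and 58.2% ± 0.06 by the second quantification. Eno2 was above that sum in both libraries by either method. How many of those reads came from Eno1 itself was not tested.

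**Figure D2:**
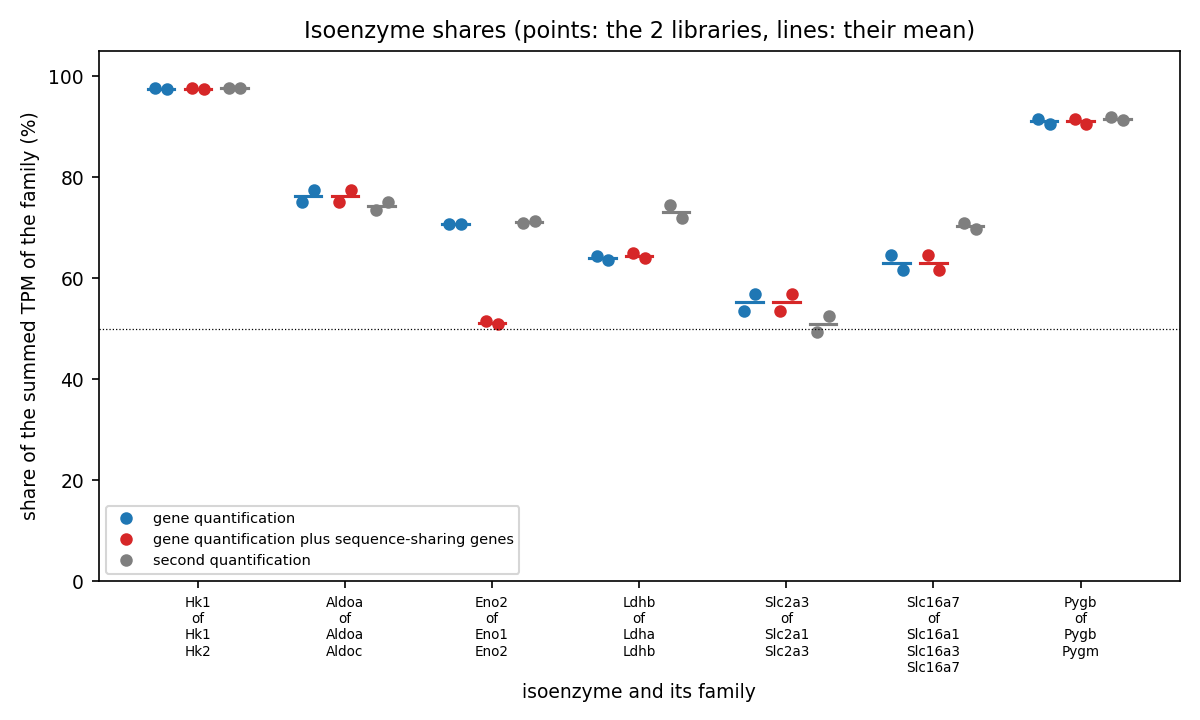
Share of 1 isoenzyme in the summed TPM of its family, in percent, for 7 families; points are the 2 libraries and lines their mean, for the gene quantification, for the same with sequence-sharing genes added, and for the second quantification; the dotted line marks 50%. The Eno2 share was 70.7%, and 51.2% when sequence-sharing genes were added, and the Hk1 share stayed at or above 97.3% in each setting.

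Pyruvate kinase closes the trunk, and Pkm was at 578.6 and 578.4 TPM in the 2 libraries. In the first transcript quantification the M1 transcript was at 297 and 308 TPM and the M2 transcript at 263 and 254 TPM. M1 was above M2 in both libraries, with 53.1% and 54.8% of their sum, and the intervals given by the authors for the transcripts did not overlap between the forms (M1 280.2 to 296 and M2 248 to 262 TPM in replicate 1). Expected counts of that quantification, which are not scaled for length, were 12985 and 13820 for M1 and 13779 and 13684 for M2. By counts M2 thus led in replicate 1 and M1 in replicate 2. In the second quantification the TPM order was the opposite of the first in both libraries. M1 there was at 413 and 437 TPM and M2 at 477 and 480.1 TPM, with M1 shares of 46.4% and 47.6%. The M1 share was therefore 54.0% ± 1.22 by one method and 47.0% ± 0.87 by the other, so the gap between methods exceeded the spread between libraries. Each method placed both forms close to equal shares, and neither settles which form led.

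The annotated transcripts differ at more than the printed exons. Of the 31-base words found in 1 of the transcripts only, M1 had 185, all at its exon. M2 had 576, of which 391 lay elsewhere, since Pkm-201 has a longer first exon (282 against 77 bases) and a longer last exon (648 against 462 bases). The part of these ends in the shift between methods was not tested. Transcripts of Pkm with neither exon held 3.21% and 2.85% of its TPM in the first quantification, and 8.85% and 3.62% in the second.

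**Figure D3:**
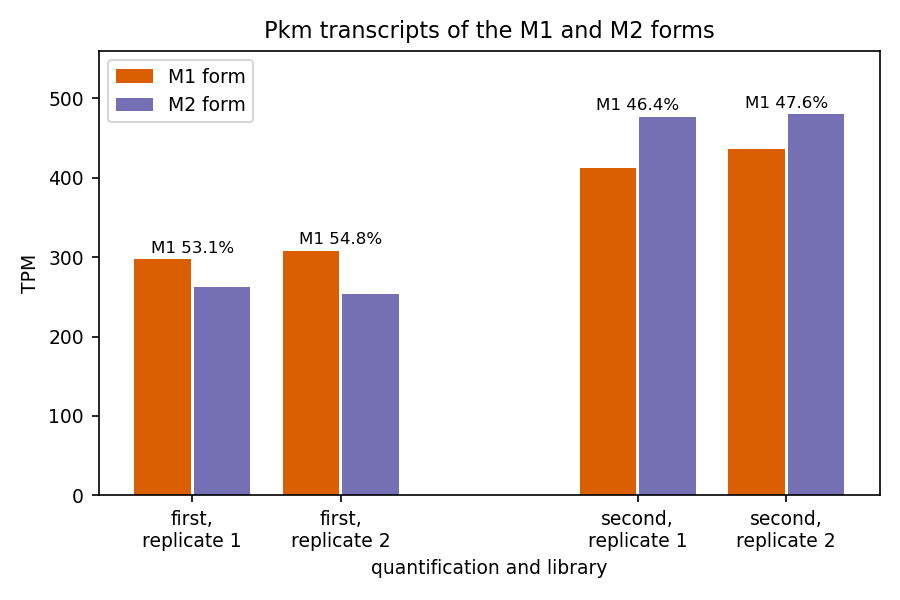
TPM of the M1 (Pkm-202) and M2 (Pkm-201) transcripts in each library by the first and the second quantification, with the M1 share of their sum printed above each pair of bars. M1 was higher in the first (53.1% and 54.8%) and lower in the second (46.4% and 47.6%); heights are not comparable between quantifications, whose TPM are scaled over different totals.

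RNA-binding proteins known to act on this exon choice were listed separately, 8 in all, and 7 were detected. Hnrnpa2b1 and Hnrnpa1, which are known to repress inclusion of the M1 exon, were at 200.2 ± 4.33 and 104.98 ± 0.98 TPM. Ptbp1, the polypyrimidine tract binding protein typical of non-neuronal cells, was at 23.8 ± 0.81 TPM, and its neuronal paralog Ptbp2 was higher at 53.5 ± 0.70 TPM. Srsf3, known to favour the M2 exon, was at 56.3 ± 5.01 TPM.

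Lactate dehydrogenase interconverts pyruvate and lactate. Ldhb, the heart-type subunit, was at 220.0 and 225 TPM, and Ldha, the muscle-type subunit, at 121 and 129 TPM. Ldhb was higher in both libraries by 1.78 ± 0.05 times and held 64.0% ± 0.68 of the pair. The second quantification raised the Ldhb share to 73.1% ± 1.83, and expected counts without length scaling gave 57.1% ± 0.32, so the direction held and the size did not. Transcript choice differed between methods here: Ldhb-202 and Ldhb-203, models with incomplete coding sequence, held 12.3% and 0.33% of Ldhb in the first quantification and 30.6% and 30.4% in the second. For Ldha, the transcript Ldha-202 held 96.8% ± 0.42 in the first and 36.4% in the second, where Ldha-201 with the same coding sequence held 49.0%.

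The lactate carriers were among the lowest genes. Slc16a7, the high-affinity carrier MCT2 of neurons, was at 16.6 and 16.1 TPM, Slc16a1, the carrier MCT1, at 8.46 and 9.10 TPM, and Slc16a3 was under the detection threshold as above. Slc16a7 held 63.1% ± 2.05 of the 3, Slc16a1 33.8% ± 1.30 and Slc16a3 3.06% ± 0.75, in the same order in both libraries and both quantifications. Of the Slc16a7 TPM, Slc16a7-205 and Slc16a7-206, which share a coding sequence, held 34.4% ± 4.23 and 31.2% ± 0.29 in the first quantification. Models with incomplete coding sequence held 16.8% there and 52.3% in the second, so the sum of those 2 shares depended on the method. Bsg, basigin, the chaperone that brings MCT1 and MCT4 to the membrane, was far above the carriers at 221 ± 2.76 TPM, and Emb, embigin, known to serve MCT2, was at 11.96 ± 0.30 TPM.

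In brain, glycogen is stored mainly in astrocytes. Pygb, brain glycogen phosphorylase, was at 82.6 and 78.2 TPM and Pygm, the muscle form known from astrocytes, at 7.67 and 8.17 TPM. Pygb held 91.0% ± 0.68 of the pair. Gys1, glycogen synthase, was at 6.57 and 5.97 TPM, below both phosphorylases in both libraries. By expected counts, which are not scaled for length, Gys1 had 427 and 385 against 411 and 444 for Pygm. Its order against Pygm thus turned in replicate 1.

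The mitochondrial entry genes were close to each other. Pdha1 and Pdhb, the alpha and beta subunits of pyruvate dehydrogenase E1, were at 89.9 and 93.3 TPM and at 75.4 and 70.8 TPM. Mpc1 and Mpc2, which form the pyruvate carrier as a heterodimer, were at 56.3 and 57.7 TPM and at 51.3 and 53.7 TPM. Mpc1 held 52.0% ± 0.35 of that pair in the gene quantification, 58.7% ± 1.55 with the sequence-sharing gene of Mpc1 added, and 45.7% ± 3.10 in the second quantification, so their order turned with the method.

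Other genes of the same pathways were taken from lists of 130 symbols, of which 129 were found and 102 detected, with a median of 11.0 TPM. Paralogs of glycolytic enzymes were the least often detected, 8 of 18. The detected ones included Bpgm, bisphosphoglycerate mutase, at 28.3 ± 0.22 TPM, Pgam5, a mitochondrial phosphatase, at 24.9 ± 3.23 TPM, Tigar, a fructose bisphosphatase, at 11.4 ± 0.37 TPM, and Eno3, the muscle enolase, at 3.28 ± 0.10 TPM, while Ldhc, the testis form, was listed at 0 in both libraries and Pklr, the liver and red cell pyruvate kinase, reached 0.03 TPM in 1 library. Other carriers and their partners were detected in 14 of 24 cases, among them Slc2a13, a myo-inositol carrier, at 29.5 ± 0.37 TPM and Slc2a6 at 16.2 ± 1.39 TPM. The insulin-responsive Slc2a4 was at 0.90 and 0.92 TPM.

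Glycogen genes were detected in 22 of 24 cases, led by Gaa, lysosomal alpha-glucosidase, at 130.3 ± 2.35 TPM and Pgm2l1, glucose 1,6-bisphosphate synthase, at 115 ± 0.47 TPM. Gsk3a, a kinase that inhibits glycogen synthase, was at 85.1 ± 6.53 TPM. Gyg, glycogenin, was at 16.0 ± 0.01 TPM and Gys2, the liver synthase, was not detected. Of genes around pyruvate dehydrogenase 16 of 20 were detected, with Dlat, the E2 subunit, at 52.9 ± 3.40 TPM, Pdk2, a kinase that inactivates the complex, at 52.8 ± 2.22 TPM, and Dld, the E3 subunit, at 42.4 ± 1.22 TPM. All 11 genes of the NADH shuttles were detected and had the highest list median, 63.7 TPM, with Mdh1, cytosolic malate dehydrogenase, at 273 ± 4.67 TPM, followed by Mdh2, its mitochondrial counterpart, and Got1, a cytosolic aspartate aminotransferase, at 163 ± 10.1 and 145 ± 0.30 TPM. All 8 pentose phosphate genes, led by Tkt, transketolase, at 67.1 ± 1.49 TPM, Taldo1, transaldolase, at 46.5 ± 0.10 TPM, and Rpe at 14.8 ± 0.13 TPM, and all 16 regulators were detected. Among these regulators the hypoxia-inducible factors Epas1 and Hif1a were at 37.7 ± 3.58 and 22.4 ± 0.65 TPM, with Egln1, a prolyl hydroxylase that acts on such factors, at 26.5 ± 0.46 TPM and Esrra, a nuclear receptor, at 22.5 ± 0.95 TPM.

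The 31 genes with 50 or more expected counts in each library were compared between replicates 1 and 2. None was apart by 25% or more, taken as the higher over the lower value, beside 10.3% of 13916 genes, and none was 2-fold apart, beside 0.273%, of which 0.122% were higher in replicate 2 and 0.151% lower. Their log2 TPM ratios of replicate 2 over replicate 1 had a median of -0.01, with 12 above and 19 below 0, against a median of -0.04 over all genes. Their SD was 0.09 against 0.20 for all genes, which include many at lower levels. The largest gaps were Slc2a1 at -0.26 and Hk2 at 0.17, the latter from 282 and 319 expected counts. The median moved to 0.04 with expected counts scaled by TMM, so 20 genes then lay above 0 and 11 below. With that scaling the median over all genes rose as well, from -0.04 to 0.003.

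By the intervals that the authors gave within each library, 4 of the 31 genes had intervals that did not overlap, beside 5.92% of genes. This background again includes many genes at lower levels, so it is not a comparison of genes with like counts. Aldoa and Ldha were higher in replicate 2, beside 1.09% of genes, and Aldoc and Slc2a1 were lower, beside 4.83%. For Aldoc the gap was in TPM and not in counts, since its expected counts were 13399 and 13315, and its log2 ratio was -0.14 in TPM and 0.00 in TMM-scaled counts. Slc2a1 had 2344 and 2090 expected counts, and its log2 ratio was -0.16 after TMM scaling and -0.30 by the second method. Over the same libraries the endothelial markers summed to 85.5 and 85.1 TPM and the astrocyte markers to 1271 and 1218 TPM. Their part in the Slc2a1 value was not tested.

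**Figure D4:**
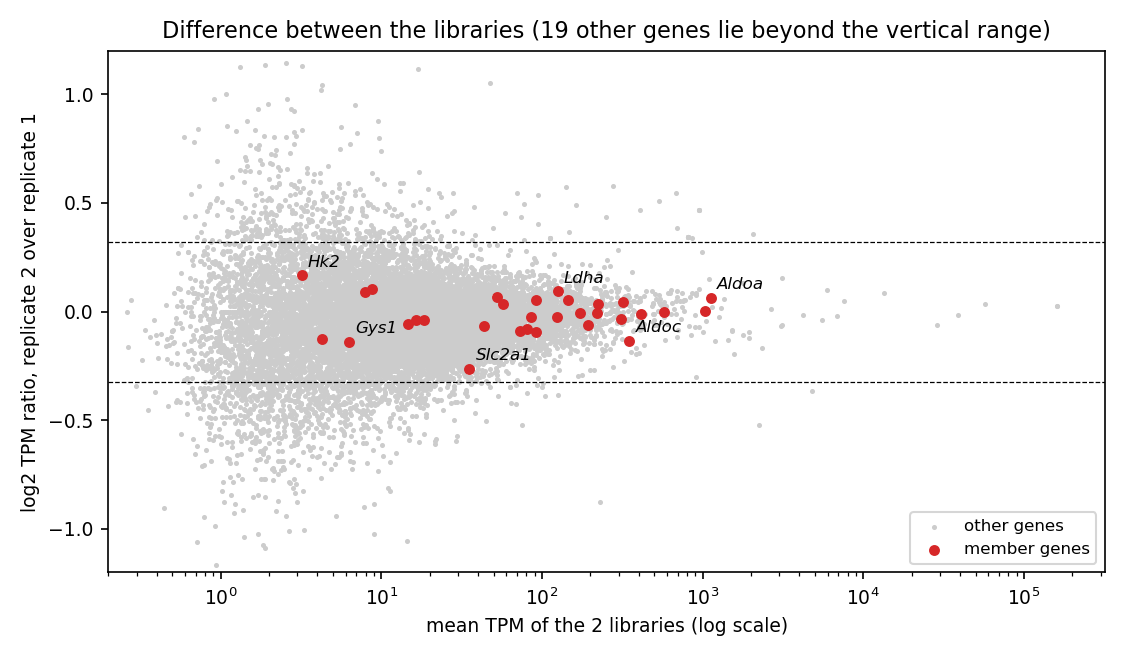
Log2 TPM ratio of replicate 2 over replicate 1 against the mean TPM (log axis) for genes with at least 50 expected counts in both libraries; the 31 tested genes of the set are red and the dashed lines mark a 25% difference. Every red point lies between the dashed lines, with Slc2a1 lowest at -0.26 and Hk2 highest at 0.17.

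Among pathway genes outside the set, 1 of 101 with enough counts was higher in replicate 2 by that threshold of 25%, beside 3.32% of all genes. Another 6 of the 101 were lower, beside 6.98% of all genes. No conclusion is drawn from these small counts. The higher one was Pygl, liver glycogen phosphorylase, at 1.82 and 2.86 TPM. The lower ones were Hif3a at 6.74 and 4.24 TPM, Pgm2, Pcx, Slc16a6, H6pd and Mlxipl, with log2 ratios from -0.67 for Hif3a to -0.33 for Mlxipl. In TMM-scaled counts Hif3a was the only one of these 6 still past the threshold, at -0.72, and Pygl was past it too, at 0.35. The others then had log2 ratios of -0.29 for H6pd, -0.23 for Slc16a6, -0.20 for Pgm2, -0.02 for Mlxipl and -0.01 for Pcx, pyruvate carboxylase. By the second quantification Slc16a6 turned to 0.18, and Pcx at -0.27 and H6pd at -0.17 were within the threshold.

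Several glycolytic genes have near copies in the genome. Using a threshold of 50% shared 31-base words, 11 of the 32 genes had such copies, 56 genes in all, and 43 of these belonged to Gapdh. Gapdh was the gene whose reads the methods treated least alike. It received 14753 and 15173 expected counts in the gene quantification and 26708 and 27217 in the second. With all copies added the family held 15991 and 16862 against 36545 and 38372, a ratio of 2.29 and 2.28. Its pseudogene Gm7336, which shares 97.3% of its words, accounted for 196 and 232 counts in the gene quantification and 9389 and 9256 in the second. The Eno1 family differed in another way, since its sum was nearly equal, 14639 and 15189 against 14999.7 and 15619, while Eno1 itself had 7195 and 7269 against 9643 and 9834. Overlapping genes are a further uncertainty, above all for Gys1, since Ruvbl2 on the opposite strand was higher at 15.1 and 16.1 TPM. Yod1, opposite Pfkfb2, was at 7.30 and 7.31 TPM, and Pitrm1, opposite Pfkp, at 24.4 and 19.9 TPM. Whether the counting used strand is not given in the sources used here.

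The transcripts chosen for Gapdh differed as well. In the first transcript quantification 68.1% ± 0.58 of the Gapdh TPM sat on Gapdh-208, a processed transcript of 483 bases without a coding sequence, and 29.9% ± 0.05 on Gapdh-201, which carries the full coding sequence. The second quantification listed both at 0 and gave 39.9% to Gapdh-207 and 25.9% to Gapdh-209, which are short models with incomplete coding sequence, and 28.8% to Gapdh-203. The level of Gapdh, a common reference gene, thus differed 2.00-fold between the methods after the rescaling described next.

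Levels of both methods were rescaled to the nuclear protein-coding total, because that total held 42.1% and 41.2% of TPM in the first and 74.2% and 74.4% in the second. Gapdh at 2.00 and Ldhb at 1.52 were the 2 genes of 31 at least 1.5-fold higher in the second quantification in both libraries, beside 2.2% of 12647 genes. None was 1.5-fold lower, beside 1.64%. The Ldhb counts were nearly the same by both methods, with 5351 and 5765 against 5515 and 5914, so the gap was in TPM and not in counts. The median ratio was 1.04 for the set and 0.94 for all genes.

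**Figure D5:**
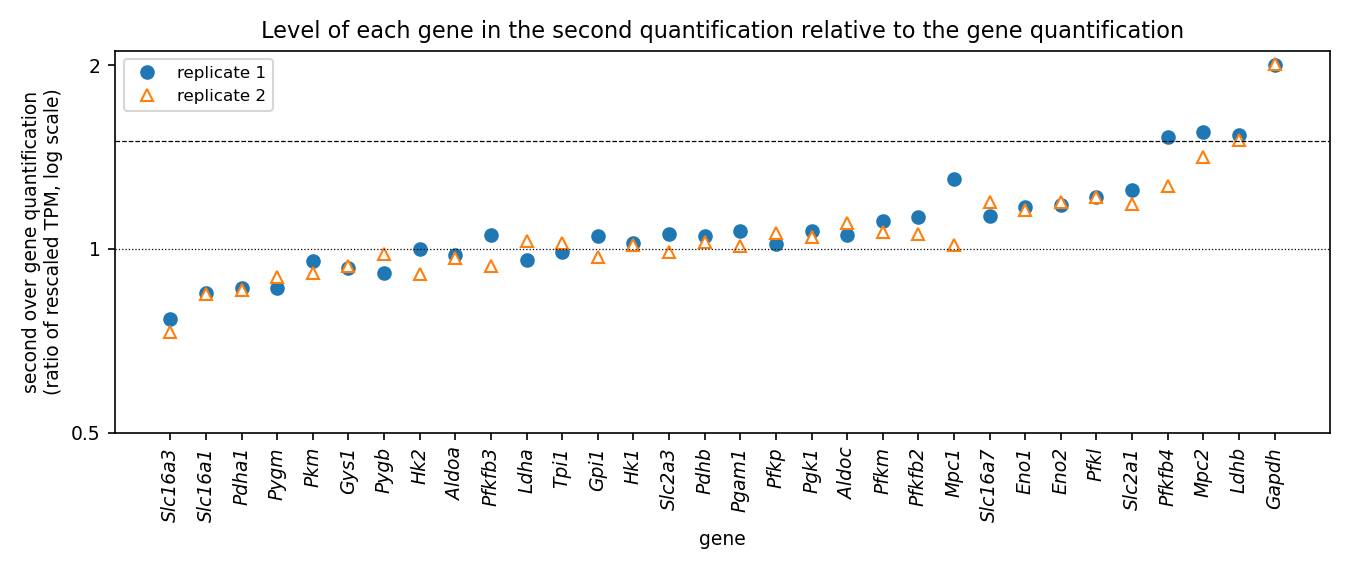
Ratio of rescaled TPM in the second quantification over the gene quantification for each of the 32 genes, on a log axis, in replicate 1 (filled circles) and replicate 2 (open triangles); the dashed line marks 1.5-fold. Gapdh is highest, at 2.00 in replicate 1 and 2.01 in replicate 2.

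Transcripts not annotated as protein-coding include processed transcripts, retained introns and those annotated for nonsense-mediated decay. In these genes they held a median of 10.1% of TPM in the first quantification, against 11.0% for detected protein-coding genes. In the second the medians were 12.1% and 13.3%. The highest gene changed with the method. Gapdh had 69.1% in the first and 0.47% in the second, where Gpi1 was highest at 59.5%, after 45.6% in the first.

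RefSeq promoter windows on GRCm38.p6, from 250 bases before to 50 bases after a start, matched 30 of the 32 genes. The letters ACGTG, found in the motif known for hypoxia-inducible factors, were searched on both strands. They occurred in 16 of 30 windows, or 53.3%, against 26.0% of 9922 windows of detected protein-coding genes and 19.6% of all windows. The palindrome CACGTG, which contains ACGTG on both strands, occurred in 4 windows, or 13.3%, against 10.4% and 7.15%. GCGTG occurred in 21 windows, or 70.0%, against 53.0% and 32.4%, and TATAAA in 2, or 6.67%, against 6.47% and 13.6%. The median GC content was 62.2% for the set and 62.0% for detected protein-coding genes. A match is a description of letters and not of a bound site.

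The lactate dehydrogenase genes differed in their ACGTG matches and are shown for that reason. Each sequence gives the 250 bases before the start, 5′ to 3′ on the gene's strand, with ACGTG on either strand in capitals. Ldha, on the forward strand at chr7:46845554-46845803, had 5 matches, with each CACGTG counted on both strands. Ldhb, on the reverse strand at chr6:142507958-142508207, had 0, as did other windows of the set. This says only that these letters are not in this window. GCGTG, which is not in capitals, does occur in the Ldhb window.
Ldha promoter: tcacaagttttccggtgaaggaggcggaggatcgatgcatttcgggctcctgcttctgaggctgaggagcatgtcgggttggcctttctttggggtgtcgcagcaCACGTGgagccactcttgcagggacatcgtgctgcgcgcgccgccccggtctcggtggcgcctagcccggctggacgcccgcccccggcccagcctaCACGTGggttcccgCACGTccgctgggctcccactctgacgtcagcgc
Ldhb promoter: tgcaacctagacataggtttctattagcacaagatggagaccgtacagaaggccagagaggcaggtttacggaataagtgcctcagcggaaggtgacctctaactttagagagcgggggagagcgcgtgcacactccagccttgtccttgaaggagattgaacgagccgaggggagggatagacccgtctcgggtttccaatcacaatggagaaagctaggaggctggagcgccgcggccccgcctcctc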

How the data were processed

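Total RNA was sequenced in 2 hippocampal libraries. Per the deposited text listings, the gene and first transcript quantifications came from alignment to the transcriptome and the second directly from the reads, both with mm10 and GENCODE M21. Their column layouts are those of RSEM and kallisto per the file headers, with program names not given in the sources used here. The authors deposited expected counts, TPM and, as a signal, interval bounds of TPM whose level is not stated. These bounds need not contain the TPM, so they were used only to compare libraries or forms. Reads from CAST/EiJ alleles were assigned to the C57BL/6J reference, and the loss this causes was not measured.

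For a symbol with several identifiers, values are those of the more abundant. Isoenzyme shares are percent of summed TPM. Exon, transcript and promoter annotation came from GENCODE M21 and RefSeq. Sequence-sharing genes have at least 50% of a transcript's 31-base words in a member's transcripts. Ratios between libraries used genes with at least 50 expected counts in both. Scaling used edgeR 4.0.16 and DESeq2 1.42.0, on expected counts rounded to whole numbers, with R 4.3.3. DESeq2 and edgeR gave size factors only; no p-values were computed. Named pathway genes were the 3 highest of each list and those at least 25% apart; others were named after their values were seen. The members and lists were chosen with earlier results of these data known. Alternatives covered thresholds, scaling, the second quantification, counts without length scaling, sequence-sharing genes and leaving out each library.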

Additional observations from a re-analysis of the deposited data

How the results depend on the processing

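Leaving out 1 of 2 libraries returns the value of the other, so it gives no check of stability. No member was 25% apart between the libraries with the scaling of DESeq2 (5.36% of all genes) or edgeR's TMM (5.28%). With genes of at least 10 expected counts 1 was (Slc16a3; 19% of all genes), as was 1 in the second quantification (Pfkfb4; 12%). By the authors' intervals 4 did not overlap (5.92%), a criterion chosen after seeing the data. The second quantification gave shares of 31.2% for Pfkl, 74.3% for Aldoa, 28.9% for Eno1, 26.9% for Ldha, 27.4% for Slc16a1, 49.1% for Slc2a1 and 47.0% for the M1 form of Pkm. Expected counts, which are not scaled for length, gave 31.4% for Pfkl, 44.2% for Pfkfb2, 72.5% for Aldoa, 27.7% for Eno1, 42.9% for Ldha, 39.9% for Slc2a1 and 93.8% for Pygb. Adding sequence-sharing genes moved Eno1 to 48.8%, and to 41.8% in the second quantification, where Pfkfb2 came to 49.8% and Ldha to 26.6%, the latter combination chosen after seeing the data. Of 47 transcript shares, 45 moved beyond the spread between libraries in the second quantification. The causes were not tested. No paired analysis was possible because there is 1 group. Depth limits Slc16a3, Hk2 and Pfkfb4, the members with the fewest counts.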
